A study of Homo sapiens with 12 samples.

Results

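The 10 genes described here are the regulators around NRF2, the transcription factor that drives the antioxidant programme: NFE2L2, which encodes NRF2, its relative NFE2L1, the ubiquitin ligase parts KEAP1 and CUL3, the KEAP1-binding autophagy receptor SQSTM1, the small MAF proteins MAFF, MAFG and MAFK, the competing repressor BACH1 and the stress-response gene OSGIN1. They were chosen by symbol, with earlier results of these data known. The Ensembl transcripts of each symbol were summed, giving 10 of 19647 genes in the table. All 10 passed the filter on low values (FPKM at or above 1 in 3 or more libraries), which 11908 genes passed. FPKM are fragments scaled to transcript length and library size and allow genes to be compared with each other. CPM are counts scaled to an adjusted library size and serve to compare libraries for 1 gene.

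Messenger RNA was sequenced in 12 libraries of A549, an established cell line from a human lung adenocarcinoma that carries a KEAP1 mutation. The series has 4 groups of 3 libraries: A549 with NR0B1 overexpression, a WT-overexpression control, A549 with NR0B1 knockdown by a short hairpin RNA (shNR0B1), and a WT-knockdown control labelled shNC. All groups share the A549 background and have no drug treatment, per the labels. NR0B1 (DAX1) is a nuclear receptor without a known ligand and mostly represses transcription. The labels do not say how many clones or hairpins stand behind a group, nor whether the 3 libraries came from separate cultures, so p-values measure the spread between these libraries, which may be technical. With 3 libraries against 3, the smallest 2-sided p of an exact permutation test of a single value is 0.1. A lower level in such bulk RNA cannot be split into fewer cells carrying the transcript and less of it per cell.

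NRF2 protein is normally bound by KEAP1, which joins it to the CUL3 ubiquitin ligase and so to the proteasome. Oxidants and electrophiles change KEAP1 cysteines, SQSTM1 can bind KEAP1 in place of NRF2, and in both cases NRF2 reaches the nucleus. There it pairs with a small MAF protein on antioxidant response elements, sites for which BACH1 with a small MAF competes as a repressor. In lung adenocarcinoma, loss of KEAP1 function leaves NRF2 protein high, and transcript levels as measured here do not show that protein.

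Binding of NRF2 by KEAP1 rests on a low-affinity and a high-affinity peptide motif near the start of the protein, and NFE2L2 transcripts differ in the coding bases they hold there. The stretches below show the bases concerned, and a link of the transcript results to them was not tested. They are in coding direction from NFE2L2-201 in GENCODE 29, GRCh38, on the minus strand. The first is the coding part of its first exon at chr2:177264532-177264576, with the start codon in capitals, the second lies at chr2:177234194-177234262 with the codons of the low-affinity motif in capitals, and the third at chr2:177234041-177234112 with those of the high-affinity motif.
NFE2L2-201 first coding exon: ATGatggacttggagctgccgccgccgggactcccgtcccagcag
NFE2L2 low-affinity motif: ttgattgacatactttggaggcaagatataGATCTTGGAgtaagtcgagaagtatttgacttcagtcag
NFE2L2 high-affinity motif: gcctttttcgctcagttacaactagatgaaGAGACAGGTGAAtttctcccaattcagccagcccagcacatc
NFE2L2-201 encodes 605 codons and NFE2L2-202 encodes 589, beginning in the exon after the 45 coding bases shown first. All 12 bases of the high-affinity motif lie in the exons of 9 of the 12 NFE2L2 transcripts in the table. NFE2L2-208 holds 7 of the 12 bases, because its exon ends inside the motif, and NFE2L2-205 and NFE2L2-209 hold 0.

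The promoters of 9 of the 10 genes, 18 windows in all, were in the RefSeq table (GRCh38.p14). MAFK had no window there and was not searched. The 250 bases before each gene start were searched on both strands for TGACNNNGC, the core of the antioxidant response element, for TGANTCA, the letters of an AP-1 site, and for TGANTCAGC, which contains the AP-1 letters and, where its N is C, also the antioxidant core. These were found in 10.9%, 6.57% and 1.11% of all 35116 windows of that length. Among the 9 genes searched, the antioxidant core was found for KEAP1 and MAFF, in 2 of the 18 windows. The AP-1 letters were found for OSGIN1 and BACH1, also in 2 of 18, and TGANTCAGC for OSGIN1, in 1 of 18. In that OSGIN1 match, read on the other strand, the N was G, and no antioxidant core was found in the OSGIN1 window. The windows of the 3 genes with a match that passed the test in an arm are shown, 5′ to 3′ on the gene's strand, with the matches in capitals: OSGIN1 at chr16:83952990-83953239, KEAP1 at chr19:10502772-10503021 and MAFF at chr22:38201744-38201993.
OSGIN1 promoter: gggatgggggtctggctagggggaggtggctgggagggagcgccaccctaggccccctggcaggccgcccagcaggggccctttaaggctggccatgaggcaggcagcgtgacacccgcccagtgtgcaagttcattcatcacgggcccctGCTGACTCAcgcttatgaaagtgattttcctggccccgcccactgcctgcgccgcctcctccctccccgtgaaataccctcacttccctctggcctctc
KEAP1 promoter: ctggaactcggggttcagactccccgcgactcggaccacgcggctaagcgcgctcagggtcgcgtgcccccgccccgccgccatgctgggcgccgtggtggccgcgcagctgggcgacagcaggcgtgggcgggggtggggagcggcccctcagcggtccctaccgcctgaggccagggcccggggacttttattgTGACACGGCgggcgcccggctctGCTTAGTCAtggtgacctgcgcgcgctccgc
MAFF promoter: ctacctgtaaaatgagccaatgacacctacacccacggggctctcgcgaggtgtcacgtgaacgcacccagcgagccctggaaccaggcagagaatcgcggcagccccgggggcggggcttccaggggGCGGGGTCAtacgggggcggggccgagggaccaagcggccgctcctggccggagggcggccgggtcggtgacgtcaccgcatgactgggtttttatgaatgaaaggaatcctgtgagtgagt
The OSGIN1 match lay 99 to 91 bases before the gene start, the KEAP1 matches 54 to 46 and 31 to 23 bases before it, and the MAFF match 122 to 114 bases before it. A match describes letters and is no evidence of binding.

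The libraries held between 15049011 and 22797076 expected counts, and 3 counts corresponded to between 0.1526 and 0.2344 CPM, so counting error was small for all 10 genes. NR0B1 stood at 98.94, 81.77 and 84.15 CPM with overexpression and at 17.87, 60.07 and 55.18 CPM in its control. In the knockdown it stood at 2.99, 3.313 and 5.843 CPM and in its control at 16.26, 21.11 and 13.29 CPM. By the quasi-likelihood test of edgeR, with p-values adjusted after Benjamini and Hochberg over all genes tested, NR0B1 fell 4.18-fold in the knockdown (adjusted p = 0.00593) and its 1.99-fold difference with overexpression had an adjusted p of 0.0912. Libraries of the knockdown and of the overexpression control were more scattered for these genes than those of the other groups: the median distance of a library from the others of its group was 0.456 to 0.598 and 0.239 to 0.446 on the log2 scale, against 0.182 at most elsewhere. Overexpression control replicate 1 had the lowest NR0B1 of its group and lay above both other libraries of its group for 9 of the 10 genes, all but CUL3. Knockdown replicate 2 had NFE2L1, BACH1 and MAFF 1.86, 2.77 and 4.13 times the level of the other knockdown libraries, and CUL3 at 0.578 times, while its NR0B1 was as low as theirs. Knockdown replicate 1 in turn had SQSTM1 at 0.422 and MAFF at 0.296 times the level of the others. Results without overexpression control replicate 1 or knockdown replicate 2 are given beside a gene where they bear most on its call, though not for every comparison. Airway epithelial and A549 markers summed to between 3675 and 7269 FPKM in every library. Of 5 immune markers, CD3E was at 0 throughout and CD68 was the only one tested, and their sum was 42.32 to 57.92 FPKM with overexpression, 44.71 to 57.07 in its control, 18.47 to 59.69 in the knockdown and 15.1 to 22.84 in its control. Endothelial and fibroblast markers did not exceed 0.35 and 0.95 FPKM in sum. The part of the CD68 difference in the results was not tested.

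All 10 regulators were expressed in every library. SQSTM1 was the most abundant at a mean of 356.5 FPKM over the 12 libraries, above 98.9% of tested genes, followed by NFE2L1 at 128.7 and NFE2L2 at 86.32 FPKM. MAFK stood at 43.24, CUL3 at 29.52, MAFG at 22.64, OSGIN1 at 22.26, KEAP1 at 19.46, BACH1 at 16.23 and MAFF at 12.65 FPKM. The first 3 places were held by SQSTM1, NFE2L1 and NFE2L2 in each group, but NFE2L1 and NFE2L2 overlapped with overexpression, and SQSTM1 and NFE2L1 overlapped in the knockdown. Places below these shifted: MAFK was the fourth at 72.66 ± 7.206 FPKM (SD, n = 3) with overexpression and the sixth at 20.38 ± 3.939 FPKM in its control. OSGIN1 was the tenth in that control and the fifth with overexpression. MAFF and OSGIN1 varied most, with the highest library 13.7 and 13 times the lowest, whereas MAFG varied by 1.76 times and CUL3 by 2.04 times.

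**Figure D1:**
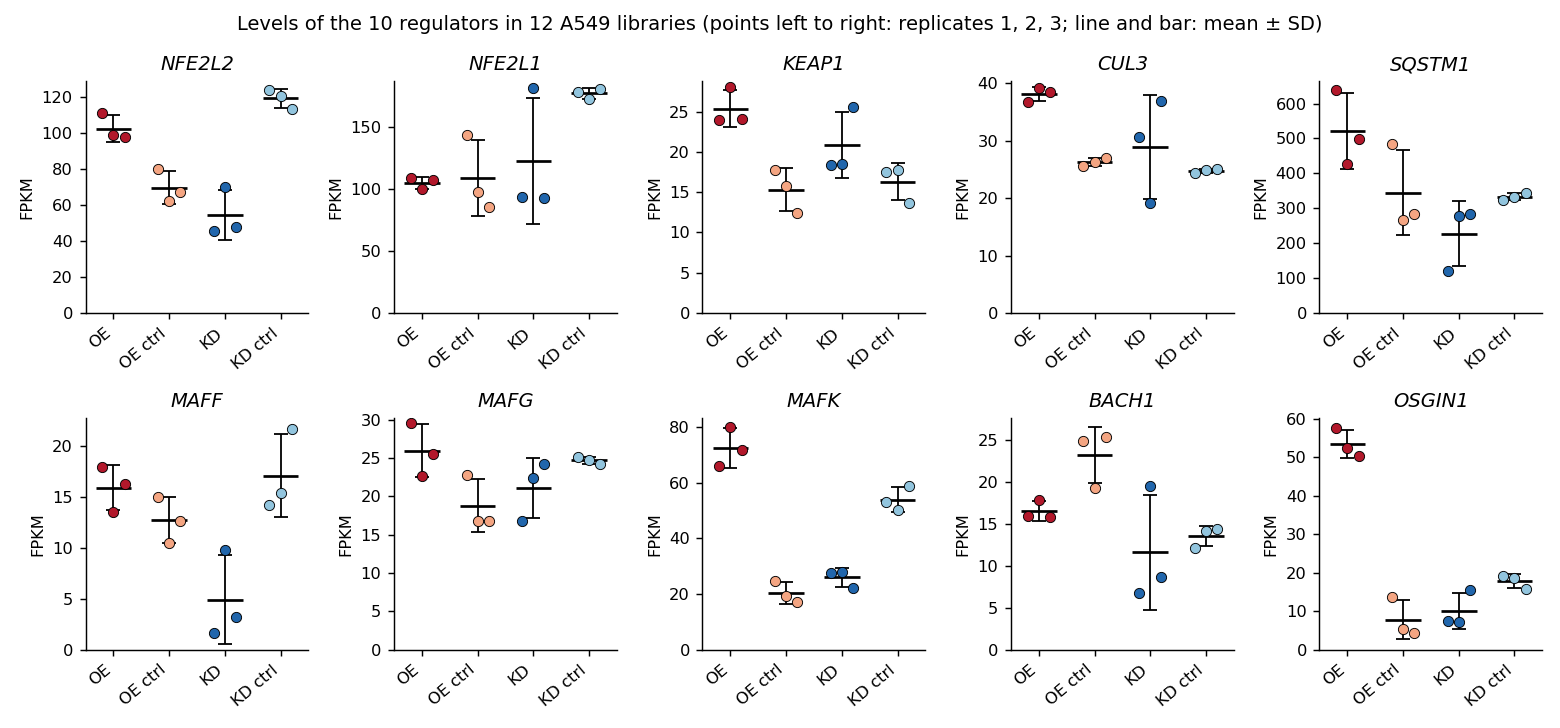
FPKM (vertical axis, linear from 0, a separate scale per gene) of the 10 regulators in the 12 libraries, with points for replicates 1 to 3 from left to right and the mean ± SD of each group. OE is NR0B1 overexpression, KD is NR0B1 knockdown and ctrl the control of each. MAFK and OSGIN1 stand highest with overexpression, NFE2L2 stands highest in the knockdown control, and knockdown replicate 2 stands above the other knockdown libraries for NFE2L1, BACH1 and MAFF.

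With NR0B1 overexpression, OSGIN1, MAFK and KEAP1 rose and none of the 10 fell by edgeR, DESeq2 or limma, nor at an unadjusted edgeR p below 0.05, against 18.1% of all tested genes called in that comparison, 9.87% higher and 8.2% lower. In the knockdown NFE2L2, MAFK and MAFF fell and none rose by edgeR, DESeq2 or limma (KEAP1, named after its values were seen, had an unadjusted edgeR p below 0.05), against 23.9% of all genes, 12.4% higher and 11.5% lower. The median log2 fold change of the 10 genes was 0.53 with overexpression, against -0.03 over all genes tested, and -0.55 in the knockdown, against 0.03. MAFK was the only regulator called in both arms, and its directions were opposite. The CPM of treated and control libraries did not overlap for 7 of the 10 genes with overexpression, 6 higher and 1 lower (BACH1), beside 43.5% of all genes, 21.6% higher and 21.9% lower. In the knockdown they did not overlap for 6, 5 lower and 1 higher (KEAP1), beside 40.9% of all genes, 20.2% higher and 20.6% lower.

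**Figure D2:**
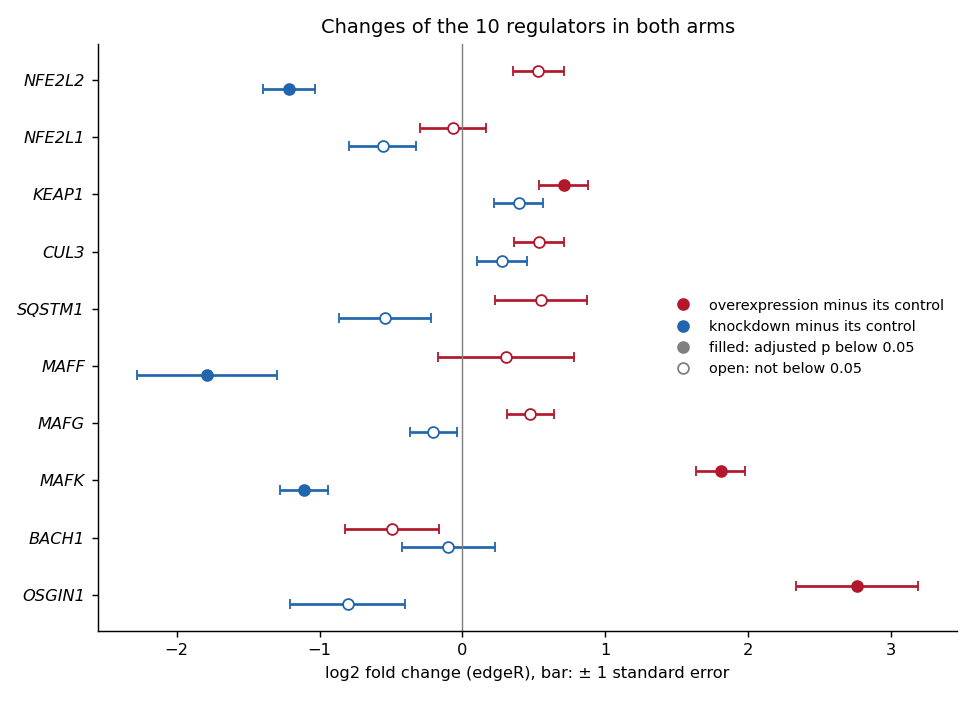
Log2 fold change by edgeR (horizontal axis) with its standard error for each regulator, red for NR0B1 overexpression minus its control and blue for NR0B1 knockdown minus its control, with filled points at an adjusted p below 0.05. Filled red points are KEAP1, MAFK and OSGIN1, and filled blue points are NFE2L2, MAFF and MAFK.

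NFE2L2 (ENSG00000116044, minus strand, chr2:177227595-177392697) encodes NRF2 itself. It stood at 117.3, 188.3 and 130.9 CPM in the knockdown and at 356, 329.3 and 326.2 CPM in its control, so that each knockdown library lay well below each control. NFE2L2 fell 2.32-fold in the knockdown, a log2 fold change of -1.21 (SE 0.182, adjusted p = 0.00123, edgeR), with replicate 2 the highest of the 3 knockdown libraries. With overexpression it stood at 312.3, 273.9 and 280 CPM versus 242.9, 166.8 and 189.4 CPM in the control. These groups did not overlap either, but the 1.45-fold difference had an adjusted p of 0.0606 by edgeR. Without overexpression control replicate 1, the highest control, the log2 fold change was 0.70 and the adjusted p 0.0207, and without knockdown replicate 2 they were 0.55 and 0.0106. NFE2L2 with overexpression passed in 8 of 22 alternatives, with log2 fold changes down to 0.42 and adjusted p up to 0.197. The knockdown control held more NFE2L2 than the NR0B1-overexpressing cells, though less NR0B1. Constructs and any batch of the arms cannot be told apart in a comparison across them, and a cause was not tested.

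NFE2L2-202 was the most abundant NFE2L2 transcript, with between 52.6% and 73.8% of the gene's FPKM in a library. The group means of NFE2L2-208 were 7.81% to 15%, those of NFE2L2-201 8.71% to 12.6% and those of NFE2L2-213 4.34% to 6.36%, and their order differed between groups. Of the 12 transcripts, 7 passed the filter, among 27116 transcripts tested. In the knockdown the longest coding form NFE2L2-201 stood at 3.53, 5.13 and 5.25 FPKM against 20.49, 11.23 and 13.49 FPKM in the control, with a log2 fold change of -1.65 (SE 0.248, adjusted p = 0.0055, edgeR). NFE2L2-202 stood at 23.98, 44.5 and 28.61 FPKM against 78.37, 80.51 and 76.49 FPKM, with a log2 fold change of -1.23 (SE 0.228, adjusted p = 0.0137, edgeR). These 2 of 7 were called, beside 6.38% of all transcripts tested. With overexpression 0 of 7 were called by edgeR under TMM or DESeq2 scaling, beside 4.91%, and 2 had an unadjusted p below 0.05, with the smallest adjusted p at 0.16 for NFE2L2-201.

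NFE2L2-208, whose exon ends inside the high-affinity motif, stood at 7.26, 10.88 and 6.4 FPKM in the knockdown and at 4.26, 14.7 and 8.79 FPKM in its control, with a log2 fold change of -0.13 (adjusted p = 0.904, edgeR). Transcripts with all 12 bases of the motif made up 81%, 82.4% and 85.3% of NFE2L2 FPKM in the knockdown and 95.3%, 86.5% and 91.4% in its control. They made up 87.7%, 86.6% and 85.3% with overexpression and 89%, 84.7% and 85% in its control. The share of NFE2L2-202 was 58.8% ± 5.572 in the knockdown and 65.92% ± 2.299 in its control (SD, n = 3 each), and these overlapped (exact permutation p = 0.2). It was 66.06% ± 2.639 with overexpression and 65.57% ± 7.218 in its control (exact permutation p = 1). A division of reads between transcripts that share most of their exons is an estimate, so shares are less certain than the gene's sum.

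**Figure D3:**
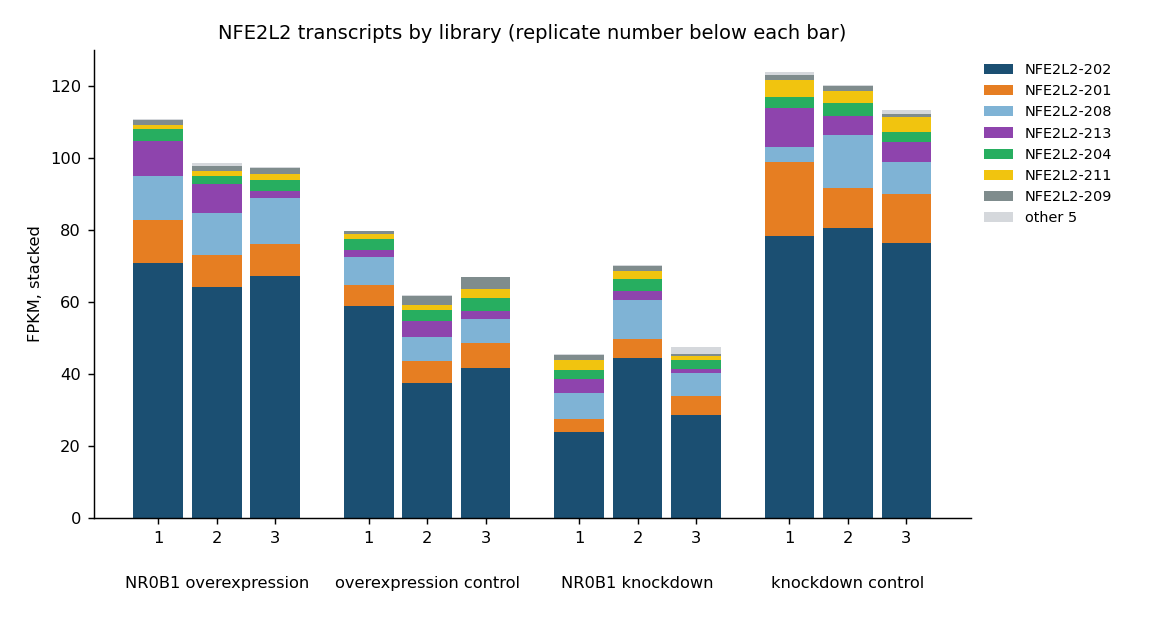
NFE2L2 FPKM (vertical axis, from 0) stacked by transcript for the 12 libraries, grouped by condition with the replicate number under each bar. NFE2L2-202 takes between 52.6% and 73.8% of each bar, and the 3 knockdown bars are lower than those of the knockdown control.

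NFE2L1 (ENSG00000082641, chr17:48048329-48061487) encodes NRF1, a membrane-anchored relative of NRF2 known for raising proteasome genes when the proteasome is short. It stood at 474.3, 445.7 and 477.6 CPM with overexpression and at 629.2, 430 and 404.1 CPM in the control, which overlapped (log2 fold change -0.07, adjusted p = 0.867, edgeR). In the knockdown it stood at 422.1, 784.8 and 423.6 CPM against 795.6, 775.4 and 827.4 CPM. Replicates 1 and 3 were thus far below the control and replicate 2 at its level. The log2 fold change was -0.56 (SE 0.234, adjusted p = 0.107, edgeR) over all 3 and -0.92 (adjusted p = 0.00231) without knockdown replicate 2.

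KEAP1 (ENSG00000079999, chr19:10486120-10503741), the substrate adaptor that holds NRF2, stood at 78.93, 91.39 and 78.98 CPM with overexpression and at 59.78, 51.06 and 41.64 CPM in the control. It rose 1.63-fold, a log2 fold change of 0.71 (SE 0.171, adjusted p = 0.0186, edgeR), with no overlap. That call was lost without overexpression replicate 2 (adjusted p = 0.0665) or without control replicate 2 or 3 (adjusted p = 0.0608 and 0.073), at log2 fold changes of 0.59 to 0.71. In the knockdown KEAP1 stood at 59.74, 58.97 and 82.23 CPM against 53.99, 55.39 and 43.48 CPM, with a log2 fold change of 0.40 (adjusted p = 0.115, edgeR; 0.0418 without both overexpression control replicate 1 and knockdown replicate 2). KEAP1 therefore lay above its control in every library of both arms, and the difference between the arms was 0.32 (SE 0.241, adjusted p = 0.357). KEAP1-202 made up nearly all of it, at 10.9 to 27.05 FPKM, while KEAP1-201 stood at 0.47 to 2.24 FPKM.

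CUL3 (ENSG00000036257, chr2:224470150-224585397) encodes the scaffold of the ligase that KEAP1 recruits. It stood at 140.5, 149.7 and 147.4 CPM with overexpression against 102.1, 97.53 and 102.3 CPM, groups that were tight and far apart, with a log2 fold change of 0.54 (SE 0.178, adjusted p = 0.0574, edgeR). The standard error comes from the spread in all 4 groups, and the knockdown libraries were scattered at 114.9, 72.59 and 137.5 CPM against 88.2, 86.53 and 93.32 CPM in their control. Without knockdown replicate 2 the log2 fold change of CUL3 was 0.55 with overexpression (adjusted p = 0.00224) and 0.50 in the knockdown (adjusted p = 0.00405). CUL3 passed in 7 of 22 alternatives with overexpression (adjusted p up to 0.15) and in 2 of 22 in the knockdown (adjusted p up to 0.776).

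SQSTM1 (ENSG00000161011, chr5:179806398-179838078), also called p62, is both a cargo receptor of autophagy and a binder of KEAP1. It stood at 1940, 1281 and 1490 CPM with overexpression and at 1524, 810.2 and 886.9 CPM in the control, where replicate 1 lay inside the overexpression range (log2 fold change 0.55, adjusted p = 0.252, edgeR). The knockdown libraries stood at 349.7, 817.5 and 841.6 CPM, all below 934.6, 968.2 and 1019 CPM in the control, with replicate 1 far below the other two (log2 fold change -0.54, adjusted p = 0.242, edgeR). Assembled transcripts carrying the SQSTM1 symbol, which are left out of these sums, held another 27.28% to 36.44% of its counts. The main one stood at 336.94, 224.84 and 269.41 FPKM with overexpression, 297.52, 145.16 and 136.77 in its control, 70.54, 165.85 and 169 in the knockdown and 231.28, 189.65 and 213.84 in its control. With these rows added, the log2 fold changes were 0.53 and -0.57, and neither was called (adjusted p = 0.256 and 0.209, edgeR).

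MAFK (ENSG00000198517, chr7:1530714-1543043), one of the small MAF proteins that pair with NRF2 or BACH1, changed in both arms. It stood at 225.5, 287.2 and 262.1 CPM with overexpression and at 90.11, 67.06 and 63.9 CPM in the control, so the lowest treated library was more than double the highest control. MAFK rose 3.5-fold there, a log2 fold change of 1.81 (SE 0.172, adjusted p = 0.000373, edgeR). In the knockdown it stood at 88.1, 96.64 and 68.39 CPM against 176.5, 166.1 and 202.7 CPM, again without overlap, and fell 2.15-fold (log2 fold change -1.11, SE 0.169, adjusted p = 0.00136, edgeR). Both of its transcripts rose with overexpression: MAFK-201 from 20.02, 15.53 and 14.73 to 50.86, 66.5 and 61.11 FPKM (adjusted p = 0.00255, edgeR) and MAFK-203 from 4.71, 3.84 and 2.32 to 15.01, 13.72 and 10.78 FPKM (adjusted p = 0.014). In the knockdown MAFK-201 was called lower (log2 fold change -1.11, adjusted p = 0.00782, edgeR) and MAFK-203 had a log2 fold change of -0.65 (adjusted p = 0.251).

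MAFF (ENSG00000185022, chr22:38200767-38216511), a stress-inducible small MAF, stood at 4.691, 27.8 and 9.348 CPM in the knockdown and at 40.32, 41.51 and 62.18 CPM in its control. All 3 knockdown libraries were lower, over a wide range, and MAFF fell 3.45-fold (log2 fold change -1.79, SE 0.491, adjusted p = 0.0233, edgeR). The call was lost without knockdown replicate 3 (adjusted p = 0.0634), without control replicate 3 (adjusted p = 0.0801) and in a fit to the 6 libraries of the arm alone (adjusted p = 0.0884). Without knockdown replicate 2 the log2 fold change was -2.78 (adjusted p = 0.000428). With overexpression MAFF stood at 51.89, 38.62 and 46.89 CPM against 44.77, 30.47 and 35.98 CPM, which overlapped (log2 fold change 0.31, adjusted p = 0.685, edgeR).

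MAFG (ENSG00000197063, chr17:81918270-81927714) varied least among the small MAF genes. It stood at 175.6, 138.3 and 151.5 CPM with overexpression against 135.4, 98.46 and 100.8 CPM, with a log2 fold change of 0.48 (SE 0.164, adjusted p = 0.0645, edgeR) that reached an adjusted p of 0.0176 without overexpression control replicate 1. MAFG passed there in 6 of 22 alternatives, with adjusted p up to 0.2. In the knockdown it stood at 95.16, 124.7 and 141.1 CPM against 140.8, 135.8 and 139.1 CPM (log2 fold change -0.20, adjusted p = 0.387, edgeR). The gene overlaps SIRT7 on the same strand, so some reads could belong to either.

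The small MAF transcripts together came to 113.3, 116.4 and 113.7 FPKM with overexpression and 62.56, 46.61 and 46.5 FPKM in its control. In the knockdown they came to 46.03, 60.13 and 49.68 FPKM against 92.37, 90.27 and 104.7 FPKM. Neither arm overlapped, and both exact permutation p-values were 0.1, the smallest possible. MAFK made up 63.4% ± 5.403 of the sum with overexpression, 39.267% ± 2.458 in its control, 50.4% ± 8.454 in the knockdown and 56.333% ± 0.874 in its control (SD, n = 3 each). The share of MAFF was lowest in the knockdown, at 3.45%, 16.3% and 6.5%, against 15.4%, 17% and 20.7% in its control.

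NFE2L2 and KEAP1 did not keep a fixed proportion. NFE2L2 FPKM was 4.62, 3.51 and 4.04 times KEAP1 FPKM with overexpression and 4.5, 3.92 and 5.39 times in its control, values that overlapped (exact permutation p = 0.5 on the log2 ratio). In the knockdown the ratio was 2.48, 3.79 and 1.85 against 7.06, 6.79 and 8.28 in the control, with no overlap (exact permutation p = 0.1 on the log2 ratio, the smallest possible). The ratio of NFE2L2 to BACH1 FPKM was 5.52 to 6.93 with overexpression, 2.63 to 3.2 in its control, 3.6 to 6.8 in the knockdown and 7.88 to 10.2 in its control, so both ratios were highest in the knockdown control.

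**Figure D4:**
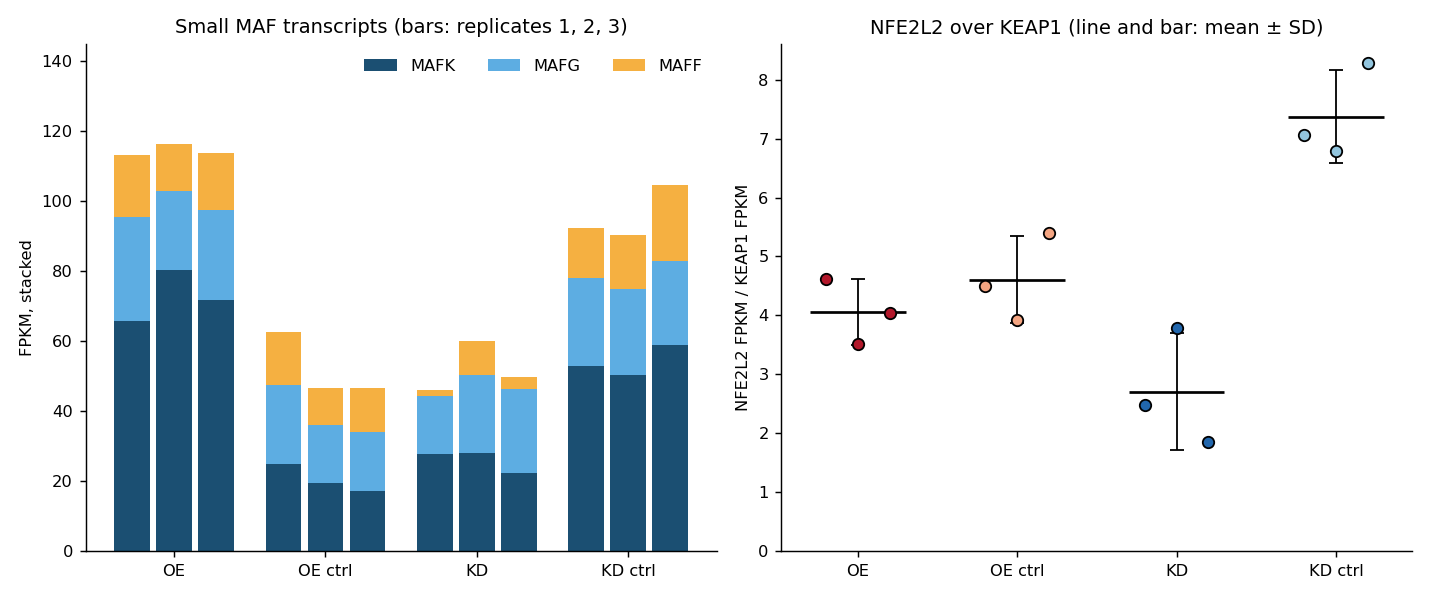
Left, FPKM of MAFK, MAFG and MAFF stacked (vertical axis from 0) for replicates 1, 2 and 3 of each group; right, NFE2L2 FPKM divided by KEAP1 FPKM with points for the libraries and the mean ± SD. The small MAF sum was 113.3 to 116.4 FPKM with overexpression (OE) and 46.03 to 60.13 FPKM in the knockdown (KD), and the ratio was 6.79 to 8.28 in the knockdown control, above every other library.

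BACH1 (ENSG00000156273, chr21:29194071-29630751) encodes the heme-sensitive repressor that competes with NRF2. It stood at 93.83, 85.68 and 81.57 CPM with overexpression and at 138.9, 102 and 126.8 CPM in the control, lower without overlap but not called (log2 fold change -0.49, SE 0.327, adjusted p = 0.31, edgeR). In the knockdown it stood at 36.86, 109.3 and 42.13 CPM against 63.5, 66.9 and 70.95 CPM, where replicate 2 lay above and the others below all controls (log2 fold change -0.10, adjusted p = 0.854). Without knockdown replicate 2 the log2 fold change was -0.77 (adjusted p = 0.00263) in the knockdown and -0.48 with overexpression (adjusted p = 0.0156), so both calls on BACH1 turn on that library.

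OSGIN1 (ENSG00000140961, chr16:83948282-83966332), an oxidative stress-induced growth inhibitor known as an NRF2 target, had the largest fold change of the 10 genes with overexpression. It stood at 137.3, 121.9 and 118.7 CPM versus 33.07, 12.45 and 10.15 CPM in the control, every treated library being over 3 times the highest control. OSGIN1 rose 6.79-fold, a log2 fold change of 2.76 (SE 0.427, adjusted p = 0.003, edgeR), and by 3.48 on the log2 scale without overexpression control replicate 1. In the knockdown it stood at 16.86, 16.81 and 36.16 CPM against 43.31, 41.87 and 36.66 CPM, with replicate 3 just under the lowest control (log2 fold change -0.80, SE 0.405, adjusted p = 0.169, edgeR). Without knockdown replicate 3 it was -1.27 (adjusted p = 0.0446), and without overexpression control replicate 1, which enters only the shared estimate of the spread, it stayed at -0.80 with an adjusted p of 0.0438. OSGIN1-203 carried nearly all of the signal, at 55.99, 49.89 and 49.11 FPKM with overexpression and 12.98, 5.13 and 3.66 FPKM in the control (adjusted p = 0.0132, edgeR).

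The responses of the arms differed by test for 4 of the 10 genes, all higher with overexpression relative to the knockdown, beside 25.6% of all genes called, 13.1% higher and 12.6% lower. The difference of the log2 fold changes was 2.92 for MAFK (SE 0.241, adjusted p = 5.76e-05), 3.57 for OSGIN1 (SE 0.585, adjusted p = 0.00194), 1.75 for NFE2L2 (SE 0.255, adjusted p = 0.00106) and 2.09 for MAFF (SE 0.679, adjusted p = 0.0433), by edgeR. The MAFF call was lost in 11 of 21 alternatives, with adjusted p up to 0.094. MAFG, at 0.68, had an adjusted p of 0.0512 and passed in 10 of 21 alternatives, among them the omission of overexpression control replicate 1 (0.84, adjusted p = 0.0138). SQSTM1, at 1.09, had an adjusted p of 0.0999 and passed in 3 of 21, among them the same omission (1.43, adjusted p = 0.0301). NFE2L1, at 0.49 (adjusted p = 0.295), passed without knockdown replicate 2 (0.87, adjusted p = 0.0117). Of their transcripts, NFE2L2-201, NFE2L2-202, MAFK-201, MAFK-203 and OSGIN1-203 differed between the arms, beside 7.98% of all transcripts tested.

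The control groups differed for 3 of the 10 genes, all lower in the overexpression control, beside 33.4% of all genes called, 17.2% higher and 16.1% lower. MAFK was 2.47-fold lower in the overexpression control (log2 fold change -1.30, SE 0.17, adjusted p = 0.000541), NFE2L2 1.69-fold lower (-0.76, SE 0.18, adjusted p = 0.00914) and NFE2L1 1.64-fold lower (-0.71, SE 0.235, adjusted p = 0.0374), by edgeR. NFE2L1 was no longer called in 7 of 22 alternatives, with adjusted p up to 0.126. OSGIN1 stood at -1.13 (adjusted p = 0.053) and passed in 8 of 22 alternatives, among them DESeq2 (adjusted p = 0.0157) and the omission of overexpression control replicate 1 (-1.84, adjusted p = 0.00203). BACH1 stood at 0.87 (adjusted p = 0.0618) and passed in 7 of 22, among them DESeq2 (adjusted p = 0.0267) and the omission of knockdown replicate 2 (adjusted p = 0.000397). MAFG stood at -0.31 (adjusted p = 0.161) and passed without overexpression control replicate 1 (-0.48, adjusted p = 0.0387). Of the transcripts, NFE2L2-201, MAFK-201 and MAFK-203 were lower in the overexpression control, beside 11.9% of all transcripts. The level of MAFK in the knockdown, 84.38 ± 14.49 CPM, was near that of the overexpression control at 73.69 ± 14.31 CPM, and NFE2L2 stood at 145.5 ± 37.71 CPM and 199.7 ± 39.1 CPM in the same groups (SD, n = 3 each). The control constructs and any batch of the arms cannot be told apart in this comparison.

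Across the 12 libraries the regulators varied together only in part. Among the 45 pairs, Pearson's r of log2 CPM was highest for MAFK with OSGIN1 (0.871), MAFG with OSGIN1 (0.864) and NFE2L2 with MAFF (0.864), and lowest for NFE2L1 with CUL3 (-0.716). The r of KEAP1 with NFE2L2 was -0.022. With NR0B1 itself r ran from -0.342 for NFE2L1 to 0.693 for SQSTM1. These are descriptions over libraries in 4 groups, and libraries of a group do not count as independent points.

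Among 11898 other tested genes, those whose log2 CPM followed NFE2L2 most closely over the 12 libraries were ZBTB21 (r = 0.979), PPP1R15A (0.979), ATF3 (0.96), UBLCP1 (0.96) and USP8 (0.958). PPP1R15A stood at 530 ± 41.36 CPM with overexpression, 209.7 ± 116.9 in its control, 102.1 ± 39.98 in the knockdown and 558.2 ± 59.19 in its control (SD, n = 3 each), the same order of groups as NFE2L2. KEAP1 was followed by NKIRAS1 (0.96), SF1 (0.951) and PSPC1 (0.944), and OSGIN1 by SCAF8 (0.98), RNF6 (0.979) and MEPCE (0.978). MEPCE stood at 123.7 ± 2.029 CPM with overexpression and at 47.57 ± 6.098, 54.17 ± 9.711 and 74.62 ± 3.682 CPM in the other groups in the order used above.

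Of 34 NRF2 target genes, 1 rose and 7 fell with overexpression, beside 9.87% higher and 8.2% lower of all genes, and the median log2 fold change was -0.21 against -0.03 over all genes. Among those that fell were AKR1C3, AKR1C2, GPX2, EPHX1, and TKT with TALDO1 of the pentose phosphate pathway, and HMOX1 rose. The log2 fold changes of TKT and TALDO1 were -0.63 and -0.53, and that of GPX2, a glutathione peroxidase, was -1.02. Without overexpression control replicate 1 the counts were 4 and 5. In the knockdown 3 rose, AKR1C1, AKR1C3 and PRDX1, and 1 fell, CYP4F11, beside 12.4% and 11.5% of all genes, and the median was 0.03, that of all genes. Without knockdown replicate 2 the counts were 7 and 1. The control groups differed for 16, with 15 higher and 1 lower in the overexpression control, beside 17.2% and 16.1% of all genes. Those counts were 13 and 4 without overexpression control replicate 1 and 15 and 5 without both libraries.

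AKR1C3, an aldo-keto reductase long used as an NRF2 readout, stood at 710.8, 538.6 and 584.8 CPM with overexpression against 1180, 981.7 and 1074 CPM (log2 fold change -0.82, SE 0.122, adjusted p = 0.0025, edgeR). It stood at 662.7, 736.4 and 693.2 CPM in the knockdown against 423.2, 390.1 and 427.8 CPM (log2 fold change 0.75, SE 0.122, adjusted p = 0.00187, edgeR). In both arms its direction was thus opposite to that of MAFK, without overlap. The AKR1C genes are close copies of each other, and reads could be split between them. HMOX1, heme oxygenase, stood at 181.3, 171 and 181.5 CPM with overexpression against 104.9, 67.71 and 69.88 CPM (log2 fold change 1.14, SE 0.361, adjusted p = 0.0497, edgeR), which passed in 11 of 22 alternatives.

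**Figure D5:**
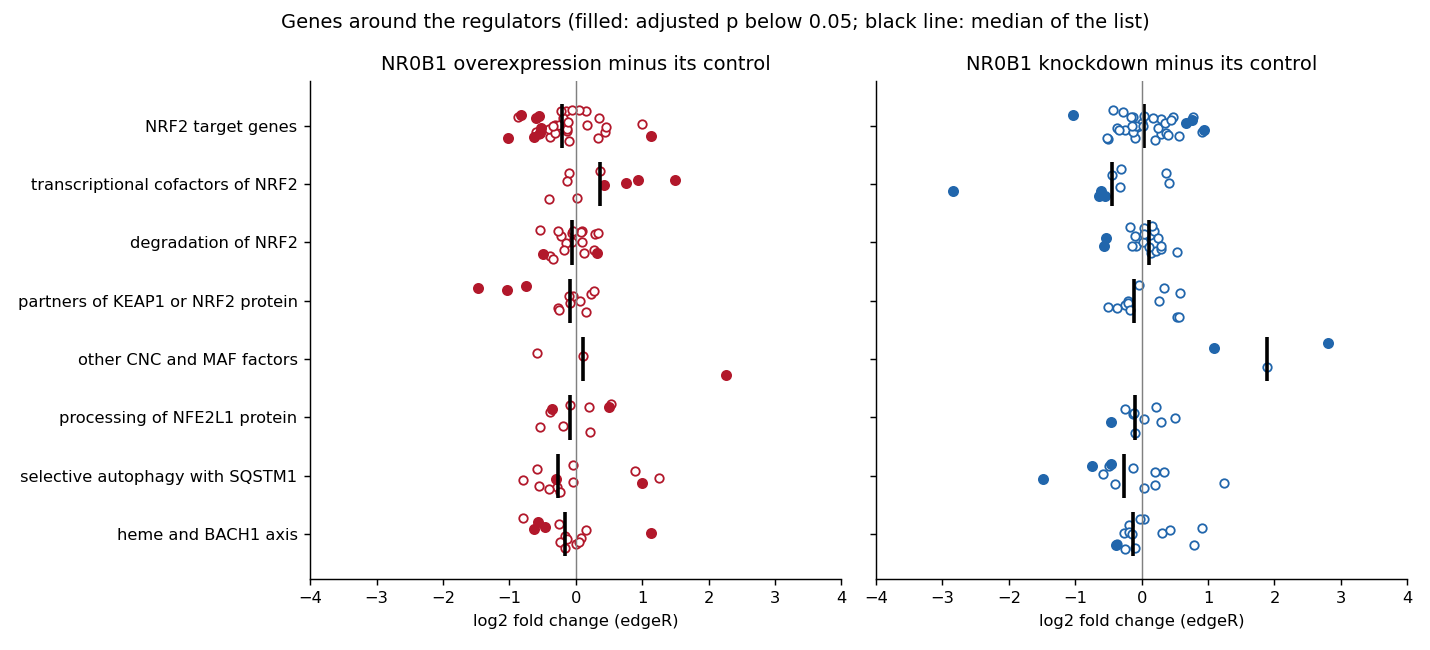
Log2 fold change by edgeR (horizontal axis) of the tested genes of 8 lists around the regulators, left for NR0B1 overexpression and right for NR0B1 knockdown, with filled points at an adjusted p below 0.05 and a black line at the median. Among NRF2 target genes 7 of the 8 filled points on the left lie below 0, and among transcriptional cofactors the 4 filled points lie above 0 on the left and the 4 on the right below 0.

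Of 9 transcriptional cofactors of NRF2, 4 rose and 0 fell with overexpression and 0 rose and 4 fell in the knockdown, with medians of 0.37 and -0.44. Over all genes 9.87% rose and 8.2% fell with overexpression and 12.4% rose and 11.5% fell in the knockdown, with medians of -0.03 and 0.03. The controls themselves differed for most of this list. In the overexpression control 1 was higher and 6 were lower than in the knockdown control, beside 17.2% and 16.1% of all genes. The median log2 fold change between the controls was -0.53, against 0.01 over all genes. CREBBP and EP300, acetyltransferases that bind NRF2, rose with overexpression (log2 fold changes 0.75 and 0.43, adjusted p = 0.00519 and 0.0187, edgeR), as did the retinoic acid receptor RARA (0.94, adjusted p = 0.00314) and the stress factor ATF3 (1.5, adjusted p = 0.0499), both described as restraining NRF2. In the knockdown CREBBP (-0.55, adjusted p = 0.0127), RARA (-0.62, adjusted p = 0.0122), the remodelling ATPase SMARCA4 (-0.64, adjusted p = 0.0154) and ATF3 (-2.84, adjusted p = 0.00281) fell. ATF3 stood at 12.58, 27 and 7.688 CPM in the knockdown and 111.6, 106.1 and 120.1 CPM in its control, and at 69.42, 57.1 and 69.28 CPM against 40.25, 10.38 and 18.8 CPM in the other arm. ATF3 with overexpression passed in 9 of 22 alternatives. The list had 6 lower genes in the knockdown without replicate 2, and 5 higher with overexpression without control replicate 1. By edgeR, DESeq2 or limma on all libraries, none was called lower with overexpression or higher in the knockdown, nor had an unadjusted edgeR p below 0.05 in that direction. Without overexpression control replicate 1, 1 was called higher and 6 lower in the knockdown.

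Among 19 genes of the machinery of NRF2 degradation, 1 rose, the kinase GSK3A, and 1 fell, DCAF11, with overexpression, beside 18.1% of all genes called. Those counts were 3 and 3 without overexpression control replicate 1. Of the same genes 2 fell in the knockdown, COPS5 of the COP9 signalosome and the neddylation enzyme UBE2M (log2 fold changes -0.56 and -0.54, adjusted p = 0.00376 and 0.00418, edgeR). Over all genes 8.2% fell with overexpression, and 12.4% rose and 11.5% fell in the knockdown. Among 12 protein partners of KEAP1 or NRF2, 3 fell with overexpression: SESN1 from 16.22, 24.74 and 25.38 to 8.021, 8.658 and 7.202 CPM (adjusted p = 0.00333, edgeR), CDKN1A (log2 fold change -1.04, adjusted p = 0.0199) and PALB2 (-0.74, adjusted p = 0.0136), which stood at 0.046 (adjusted p = 0.839) once assembled transcripts were added. In the knockdown 0 of the 12 passed by edgeR, beside 23.9% of all genes called. Of these 12, 2 had an unadjusted edgeR p below 0.05, 1 passed by DESeq2 and 1 by limma. Without knockdown replicate 2, the knockdown calls were 5 higher and 3 lower in the degradation list and 1 in each direction among the partners.

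Of the 7 other CNC and MAF factors, 3 were tested. NFE2L3 and MAF rose in the knockdown (adjusted p = 0.0415 and 0.0496, edgeR), beside 12.4% of all genes higher there, but NFE2L3 stood at 60.57, 176.2 and 60.95 CPM against 48.71, 45.78 and 44.9 CPM, and neither passed without knockdown replicate 2. MAF was near the filter, at 1.44, 1.62 and 0.66 FPKM against 0.14, 0.09 and 0.27 FPKM. It reached an FPKM of 1 only in knockdown replicates 1 and 2 and overexpression control replicate 1 (1.43 FPKM), so it was tested largely through the group where it was high.

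Around NFE2L1, of 9 genes that process its protein, the ubiquitin ligase part FBXW7 rose and STUB1 fell with overexpression, and the deubiquitinase USP15 fell in the knockdown (log2 fold changes 0.50, -0.36 and -0.46, edgeR). Around SQSTM1, of 12 genes of selective autophagy, TRAF6 rose (2-fold, adjusted p = 0.00232, edgeR) and TAX1BP1 fell (log2 fold change -0.30, adjusted p = 0.0449) with overexpression. In the knockdown the autophagosome protein MAP1LC3B fell from 210.6, 200 and 267.5 to 74.95, 98.73 and 67.59 CPM (log2 fold change -1.49, adjusted p = 0.00349, edgeR), and so did the receptors TAX1BP1 (-0.46, adjusted p = 0.00532) and NBR1 (-0.75, adjusted p = 0.0349). Around BACH1, of 14 genes of the heme axis, HMOX1 rose and FBXO22, BLVRA and BLVRB fell with overexpression, and USP47 fell in the knockdown. Without knockdown replicate 2, the knockdown calls of these lists were 1 higher and 2 lower for NFE2L1, 0 and 5 for SQSTM1 and 1 and 1 for BACH1. Without overexpression control replicate 1, those with overexpression were 0 and 2, 2 and 1, and 2 and 2. The medians of these 3 lists lay between -0.27 and -0.09 in both arms, beside -0.03 and 0.03 over all genes. The shares of all genes called are those given with the NRF2 targets. All 8 lists were drawn from textbook knowledge with earlier results of these data known, and their counts describe these libraries only.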

How the data were processed

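The authors deposited 1 table with expected counts and FPKM per transcript for 12 libraries, per the file headers. The submitters' processing notes name RSEM, StringTie 1.3.1, Bowtie2 2.2.8, HISAT2 2.0.5 and fastp. The notes name mouse builds while the identifiers are human, so gene and transcript coordinates are GENCODE 29 (GRCh38). The notes do not say how transcripts were assembled or whether strand was used, so reads of overlapping genes (PLA2G6 at MAFF, TMEM184A at MAFK, MGAT4B at SQSTM1) cannot be told apart.

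Expected counts were summed over Ensembl transcripts per symbol, rounded and tested with edgeR 4.0.16 (quasi-likelihood, robust, TMM scaling) in R 4.3.3, in 1 fit of all 12 libraries with a mean per group and 8 residual degrees of freedom. Genes needed an FPKM of 1 in 3 libraries. Adjusted p below 0.05 (Benjamini-Hochberg over 11908 genes) was a call. An SE is the absolute log2 fold change over the square root of F. Transcripts were tested likewise. Alternatives used DESeq2 1.42.0, limma 3.58.1 on log2(FPKM + 1), other filters, a replicate block and omitted libraries. The fit was also run on simulated data with the same spread for all genes and groups, and the outcome is not reported here. Named genes were all 10 regulators, NR0B1, up to 4 called genes per list and arm with the smallest adjusted p (or the 2 most abundant), and the nearest genes by correlation; AKR1C2, GPX2, EPHX1 and HMOX1 as a target complete a count and were chosen with their values in view. The members and lists were chosen with earlier results of these data known. Some genes of the lists are counted but not reported here by name.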

Additional observations from a re-analysis of the deposited data

Results flagged for a closer look

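The responses to overexpression and knockdown differed by a test of the difference itself for 4 of the 10 regulators. The difference of log2 fold changes, overexpression minus knockdown, was 2.92 for MAFK, 3.57 for OSGIN1, 1.75 for NFE2L2 and 2.09 for MAFF. For MAFK both arms passed on their own, for NFE2L2 and MAFF only the knockdown did and for OSGIN1 only overexpression did. Each group held only 3 libraries, and no result of Dixon's test of an outlying value is given.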

How the results depend on the processing

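Each group had 3 libraries, and 3 counts came to 0.2344 CPM at most, far below the lowest regulator level of 4.691 CPM. With overexpression 3 of the 10 regulators were called, and 2 to 7 when 1 library was left out, 6 by DESeq2's own test, 6 in a fit of the 6 libraries alone and 7 without both overexpression control replicate 1 and knockdown replicate 2. In the knockdown the 3 calls became 2 to 6 with 1 library left out and 7 without both. The 4 differences of the arms became 3 to 6 and 7. The 3 differences of the controls became 2 to 5, 5 by DESeq2's test and 6 without both. All called genes moved from 2152 to between 821 and 3300 with overexpression when 1 library was left out and to 4462 without both, from 2851 to between 1503 and 3435, to 1833 in the arm alone and to 4493 in the knockdown, and from 3054 to 4590 for the difference. The cause was not tested. The NFE2L2 transcripts called stayed at 0 with overexpression and were 1 to 2 in the knockdown when 1 library was left out. The share of NFE2L2-202 differed by 0.488 percentage points with overexpression, and by -2.02 to 4.62 when 1 library was left out. PALB2 turned from -0.742 to 0.046 (log2) when assembled transcripts were added, and that cause was not tested.

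MAFK and NFE2L2 in the knockdown, and MAFK and OSGIN1 with overexpression, passed in all 22 alternatives. Same-numbered libraries correlated, in their deviations from the group mean, at 0.197, 0.131 and 0.008 in the overexpression arm and at -0.006, -0.087 and -0.059 in the knockdown arm. Libraries of unlike number correlated at -0.181 to 0.131 and at -0.081 to 0.103. Deviations of 3 libraries from their mean depend on each other, so these values do not settle whether the numbers pair the libraries. With the replicate block the calls were 3, 3, 3 and 2 for overexpression, knockdown, the difference and the controls, and 0 and 2 NFE2L2 transcripts.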
